A study of Mus musculus with 7 samples.

Results

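The comparison set 1 array of unsorted progenitors against 5 arrays of sorted progenitors from cultured mouse fetal liver, and a gene was called apart only where the unsorted array lay outside the range of all 5 sorted arrays. These 6 arrays were chosen by their titles from the 7 of the series, and the remaining array, of the feeder layer, was not used. The unsorted sample is named in its title only as liver endothelial progenitor, with no statement on Sca1. The sorted samples are liver endothelial progenitors separated by Sca1, a surface protein encoded by Ly6a, into 2 Sca1+ and 3 Sca1- arrays. All came from fetal liver total RNA, and the labels give no strain, age or treatment. Whether any samples are independent cultures or animals is not labelled, so the p-values cover only a spread among arrays that can be technical. The unsorted group is 1 array with no replicate, so its own spread is unknown.

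Fetal liver houses blood formation beside immature liver cells (hepatoblasts), bile duct precursors, stromal cells, macrophages and endothelium, and a culture that has not been sorted can hold any of them. Endothelial cells are recognised by genes such as Pecam1 (CD31), Cdh5 (VE-cadherin) and Kdr (a VEGF receptor), hepatoblasts by Dlk1 and Afp, epithelium by Epcam and keratins, and leukocytes by Ptprc (CD45). Type I interferons act through STAT and IRF factors on promoter elements called ISREs and induce a shared set of antiviral genes, which is prominent in macrophages.

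The value of a gene is its array signal on a linear scale, with the trimmed mean of every array set to 500. For log2 values, signals under 64 were set to 64. The distance is the log2 gap between the unsorted array and the nearest sorted array. Of 8404 genes that passed a mean signal of 100 over the 6 arrays, 2583 (30.7%) lay above all 5 sorted arrays and 1460 (17.4%) below. At a distance of at least 2-fold, 301 genes (3.58%) lay above and 199 (2.37%) below. After quantile normalization, which gives all arrays the same distribution, the split turned: 1727 of 8423 genes (20.5%) lay above and 2120 (25.2%) below, and at 2-fold 121 (1.44%) above and 358 (4.25%) below. Under both scalings 90 genes were 2-fold above and 158 were 2-fold below. The median gene differed by 0.21 on the log2 scale before quantile normalization and by -0.06 after it.

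The unsorted array had a narrower spread of signals than the sorted arrays. Its median signal was 236 against 122 to 163, and its 99th percentile was 7407 against 11805 to 17757. The control probe sets for added transcripts (spike-in controls) summed to 48803 on the unsorted array and to 202889 to 552365 on the sorted arrays. Among genes with a mean log2 level of at most 7, 57.6% lay above all sorted arrays, and among those over 12, 63.5% lay below. After quantile normalization these shares were 23.4% and 30.2%. The ratio of 3' to 5' Actb probe sets, a sign of RNA or labelling length, was 1.01 on the unsorted array. It was 6.83 on Sca1+ replicate 1, 13.5 on Sca1- replicate 1 and 1.87 to 2.37 on the other sorted arrays. Sorted arrays also differed from each other, with correlations over genes of 0.68 to 0.97, against 0.66 to 0.88 with the unsorted array. The part of these array properties in the gene differences below was not tested.

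**Figure D1:**
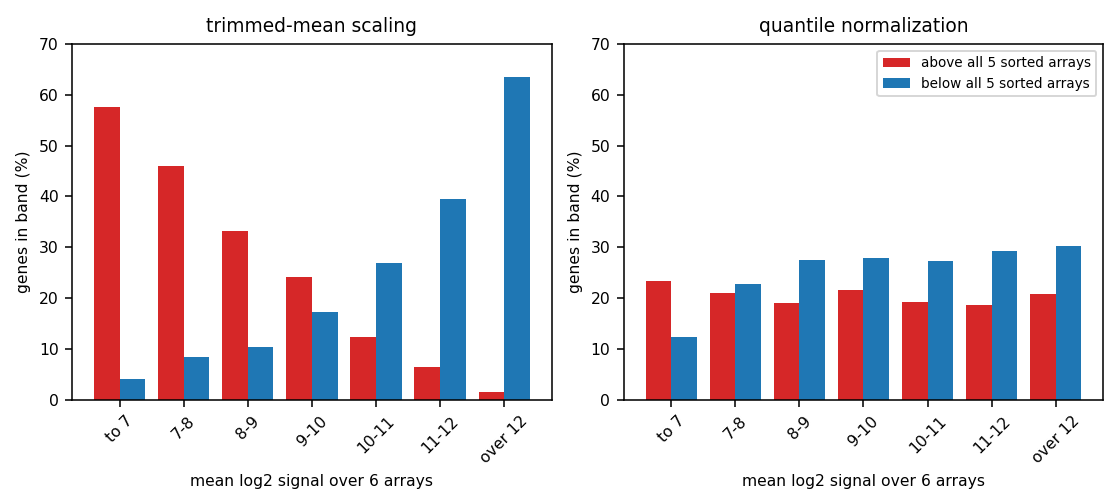
Bars give the percent of genes above (red) or below (blue) all 5 sorted arrays in bands of mean log2 signal over 6 arrays, with trimmed-mean scaling on the left and quantile normalization on the right. On the left the share above drops from 57.6% to 1.48% and the share below climbs from 4.06% to 63.5%; on the right both vary less with level.

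With limma, which here assumes that the lone unsorted array varies like the sorted ones, 0 genes passed a Benjamini-Hochberg adjusted p of 0.05. The smallest adjusted p was 0.182, and 562 genes (6.69%) were higher and 347 (4.13%) lower at an unadjusted p under 0.05. An exact permutation of 1 array against 5 cannot go below a two-sided p of 0.333. The titles of 2 sorted arrays (1 Sca1+ and 1 Sca1-) carry no sample number, as does the unsorted title, while 3 name sample 2 or 3. These 2 unnumbered sorted arrays are the ones with the Actb ratios of 6.83 and 13.5. With this title numbering as a block, which sets the unsorted array against the 2 unnumbered sorted arrays, 368 genes (4.38%) were higher and 228 (2.71%) lower in limma. With quantile normalization in the same blocked fit 316 (3.75%) were higher and 366 (4.35%) lower. Of the genes at least 2-fold apart, 67 of those above and 112 of those below passed this blocked fit.

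The check of the label against endothelial markers gave low values on the unsorted array. Pecam1 read 117 unsorted, 15 and 206 in Sca1+ and 23.2, 117 and 25.8 in Sca1-, below the mean signal required for testing. The highest background control of the unsorted array read 170. Cdh5 read 210 on the unsorted array and 7 to 237 on the sorted arrays, and Kdr read 418 against 141 to 432, so both lay inside the sorted range. Of 34 pan-endothelial genes, 15 passed the filter. Of these, 4 (26.7%, against 30.7% of all genes) lay above and 1 (6.67%, against 17.4%) below. In the log2 level band of 7 to 8 that holds the list's median, 46.0% of all genes lay above and 8.39% below. Of the 4 above (Emcn, Robo4, Nos3 and She), Emcn and She passed the filter only through the unsorted array, as did Cdh5. The mean signal of each over the sorted arrays was under 100. The list's median difference was 0.66 with trimmed-mean scaling and -0.10 after quantile normalization. The leukocyte gene Ptprc read 5399 on the unsorted array, 10505 and 4777 in Sca1+ and 13668, 7586 and 6501 in Sca1-, which is inside their range. No probe set was paired with Ly6a.

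Interferon-stimulated genes had more members below the sorted arrays than any other of the 30 lists. Of 39 listed genes 33 passed the filter, and 25 of them lay below all 5 sorted arrays against 17.4% of all genes, 10 of them by at least 2-fold, while 0 lay above. The median difference was -1.22, with -1.23 against the 2 unnumbered and -1.14 against the 3 numbered sorted arrays. After quantile normalization 24 lay below, 13 by at least 2-fold, 1 lay above, and the median was -1.37. The members' median log2 level was 11.02. In the band of 11 to 12, 39.5% of all genes lay below, and 29.2% after quantile normalization. Of all genes, 2.37% lay at least 2-fold below, and after quantile normalization 25.2% lay below and 4.25% at least 2-fold below.

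Rsad2 (viperin, an antiviral enzyme) read 1659 on the unsorted array, 10163 and 9494 in Sca1+ and 16535, 9026 and 8804 in Sca1-. The unsorted value was far under every sorted one, with a distance of -2.41. A second Rsad2 probe set lay -2.60 below, and the third, with signals of 710 to 971 on the sorted arrays, read 825 on the unsorted array and lay inside the range. Ifit1, which binds viral RNA, read 771 against 3593 and 3070 in Sca1+ and 5058, 3054 and 3109 in Sca1-, a distance of -1.99. Its relative Ifit3 read 846 against 4690 and 3914 in Sca1+ and 6300, 2754 and 2845 in Sca1-, a distance of -1.70. For both genes the unsorted value lay under every sorted one.

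Further members at least 2-fold below were Parp14 (-1.68), Mx2 (-1.52), Usp18 (-1.47), which removes ISG15 from proteins, Oas1a (-1.37), a sensor of double-stranded RNA, Cmpk2 (-1.32), the peptide transporter Tap1 (-1.21) and Oasl1 (-1.12). Irf7, an inducer of interferon, lay at a distance of -0.78. Members inside the sorted range included Irgm1, with 1082 against 866 to 1277, and Psmb8, an immunoproteasome subunit, with 1707 against 1612 to 3158. Of the 25 members below, 4 had another probe set above the filter, and for Cmpk2 and Trim30a that probe set lay above all sorted arrays, by 0.43 and 0.27. The 32 measured macrophage markers, as a measure of cells in which this set is prominent, summed to 144864 on the unsorted array and to 196760 to 312194 on the sorted arrays. Of the 28 that passed the filter, 5 (17.9%, against 30.7% of all genes) lay above and 7 (25.0%, against 17.4%) below. Among the 5 above, Maf passed the filter only through the unsorted array. After quantile normalization the split turned, with 9 (32.1%, against 20.5%) above and 2 (7.14%, against 25.2%) below and a median difference of 0.40. In bulk samples fewer cells of a type and less RNA per cell cannot be told apart, and the part of macrophage content was not tested.

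**Figure D2:**
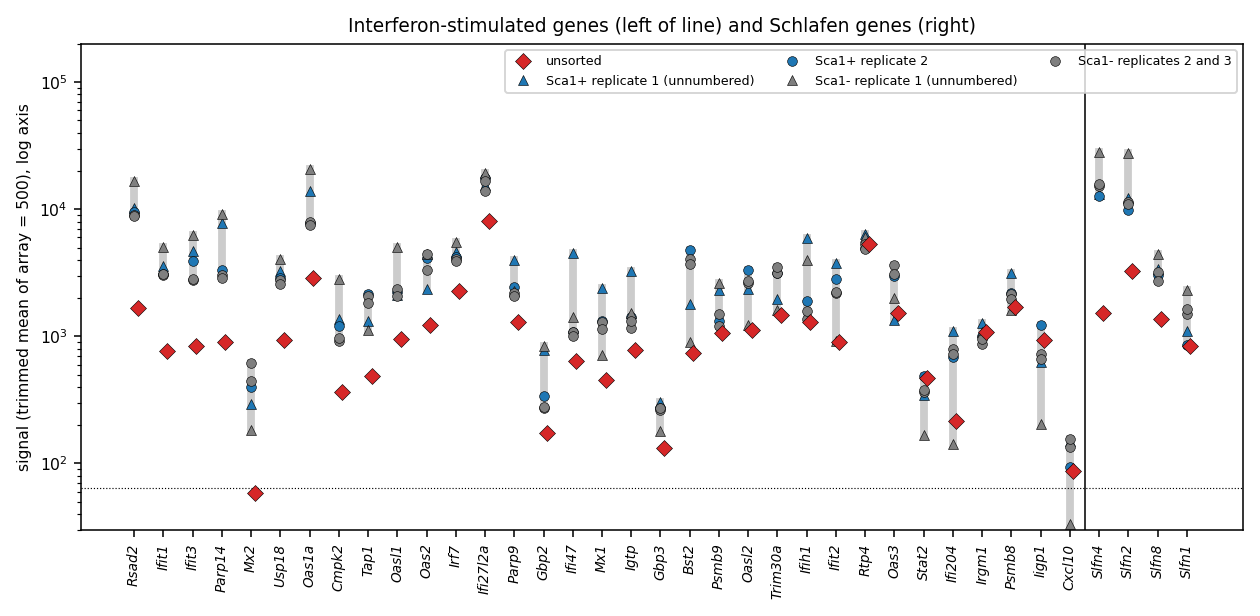
Signal on a log axis for the 33 interferon-stimulated genes, ordered by distance, and 4 Schlafen genes; red diamonds are the unsorted array, other symbols the 5 sorted arrays with their range as a grey bar, and the dotted line is the floor of 64. The unsorted array lies under the bar for 25 interferon-stimulated and 4 Schlafen genes.

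The Schlafen family, interferon-responsive genes expressed in lymphoid and myeloid cells, also lay below. All 4 tested members did so under both scalings, against 17.4% of all genes and 25.2% after quantile normalization. Their median log2 level was 12.42. In the band over 12, 63.5% of all genes lay below, and 30.2% after quantile normalization. Slfn4 read 1539 on the unsorted array, 13080 and 12667 in Sca1+ and 28038, 15358 and 15802 in Sca1-. Every sorted array was far above the unsorted one, with a distance of -3.04, and -2.85 after quantile normalization. Slfn2 read 3284 against 9808 to 27460 (-1.58), Slfn8 1366 against 2717 to 4436 (-0.99) and Slfn1 835 against 859 to 2297 (-0.04). These were the 4 members of 10 listed that passed the filter.

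The promoters of 3 interferon-stimulated genes that lay below and of Slfn4 are shown because interferon acts through a known promoter element; they were chosen from these lists and are not the genes farthest below overall. The 250 bases before each start are from RefSeq (GRCm38.p6), 5' to 3' on the gene's strand, at 19:34640639-34640888 (Ifit1, plus strand), 19:34583279-34583528 (Ifit3, plus strand), 12:26456453-26456702 (Rsad2, minus strand) and 11:83174936-83175185 (Slfn4, plus strand). Capitals mark the ISRE-like motif GAAANNGAAA or its reverse complement.
Ifit1: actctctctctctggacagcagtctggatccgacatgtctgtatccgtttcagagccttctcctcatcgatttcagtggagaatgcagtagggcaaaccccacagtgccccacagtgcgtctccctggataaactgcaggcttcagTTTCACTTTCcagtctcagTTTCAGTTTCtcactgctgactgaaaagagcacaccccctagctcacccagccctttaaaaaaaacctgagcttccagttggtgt
Ifit3: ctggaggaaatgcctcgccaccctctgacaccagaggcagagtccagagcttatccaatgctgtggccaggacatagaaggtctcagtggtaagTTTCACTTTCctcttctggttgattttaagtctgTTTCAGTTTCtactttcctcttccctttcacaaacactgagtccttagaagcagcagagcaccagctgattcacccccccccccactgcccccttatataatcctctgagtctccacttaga
Rsad2: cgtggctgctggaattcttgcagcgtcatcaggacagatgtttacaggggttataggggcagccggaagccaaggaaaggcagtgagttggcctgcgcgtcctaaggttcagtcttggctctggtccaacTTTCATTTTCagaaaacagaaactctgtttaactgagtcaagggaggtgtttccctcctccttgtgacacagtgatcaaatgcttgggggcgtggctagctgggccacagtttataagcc
Slfn4: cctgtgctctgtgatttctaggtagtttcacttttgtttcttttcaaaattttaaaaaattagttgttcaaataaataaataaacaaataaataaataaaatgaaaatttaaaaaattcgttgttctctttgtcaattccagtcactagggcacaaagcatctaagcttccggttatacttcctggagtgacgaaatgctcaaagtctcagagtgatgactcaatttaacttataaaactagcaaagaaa
Both strands were searched, and overlapping matches were merged in the capitals. The motif was found 2 times in Ifit1 and in Ifit3, 1 time in Rsad2 and not in this window of Slfn4. Among the tested genes with a promoter entry, 236 of 6819 (3.46%) held it. Of 23 interferon-stimulated genes with an entry, 13 held it: 9 of 18 that lay below all sorted arrays and 4 of 5 inside the range. Of all genes at least 2-fold below, 10 of 162 (6.17%) held it, and of those at least 2-fold above, 15 of 223 (6.73%). A match describes these letters and is not a measured binding site.

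Other genes below were of mixed function. Saa3, an acute-phase protein, read 801 against 16018 and 3429 in Sca1+ and 3661, 9325 and 8731 in Sca1-, a distance of -2.10. The chemokine Cxcl2 lay at -1.26 and Acod1, which makes itaconate in activated macrophages, at -1.21. Of 28 S phase genes 11 (39.3%, against 17.4% of all genes) lay below, and 57.1% against 25.2% after quantile normalization, with Fen1 (-1.71) and Gins1 (-1.25) by at least 2-fold; a second Fen1 probe set lay inside the range. Of 27 hypoxia and glycolysis genes 14 (51.9%) lay below, against 17.4% of all genes and 26.8% of those in the log2 level band of 10 to 11 that holds the list's median, and 44.4% against 25.2% after quantile normalization. Pgk1 lay at -1.27, the glucose transporter gene Slc2a1 at -1.25 and Ldha at -1.02. After quantile normalization Pgk1 was at -0.49, Slc2a1 at -1.14 and Ldha inside the range.

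The single genes farthest below included Ric8a (-3.25), Itsn1 (-2.90), Timeless (-2.55), a clock and replication fork protein, and the ribosomal protein gene Rpl27a (-2.32). Ric8a read 66.0 on the unsorted array and 630 to 1710 on the sorted arrays. Another probe set of Ric8a lay above all sorted arrays by 0.05, and 2 others of Itsn1 by 0.46 and 0.36. Of the 199 genes 2-fold below, 115 had another probe set above the filter, and it was outside on the same side for 49 genes and on the opposite side for 33. For the 301 genes 2-fold above the numbers were 51, 37 and 1. The remaining genes of the 15 farthest below were Plk3, Mthfd1, Tfpt, Glipr2, Bola2, Atg101 and Pcyt2, at distances of -2.30 to -1.90.

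Above the sorted arrays, the genes farthest out had low sorted signals. Dmbt1, a secreted scavenger receptor of epithelia, read 976 on the unsorted array, 26.6 and 64.8 in Sca1+ and 10.2, 2.40 and 6.60 in Sca1-, at or near the floor on every sorted array. The distance of 3.91 is therefore measured against the floor. Epcam, an epithelial adhesion molecule, read 431 against 103 and 7.60 in Sca1+ and 29.98, 81.2 and 4.20 in Sca1-, a distance of 2.07 and 1.33 after quantile normalization. Of the 301 genes 2-fold above, 188 had at least 1 sorted array at the floor and 23 read above 1000 on the unsorted array. The other genes of the 15 farthest above were Keg1, Reg3b, Smad3, Prkch, Tgfbr3, Pcsk5, Asah2, Eci3, Notum, Pik3ap1, Scgb3a1, Wfdc2 and Fut10, at distances of 1.90 to 2.17.

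**Figure D3:**
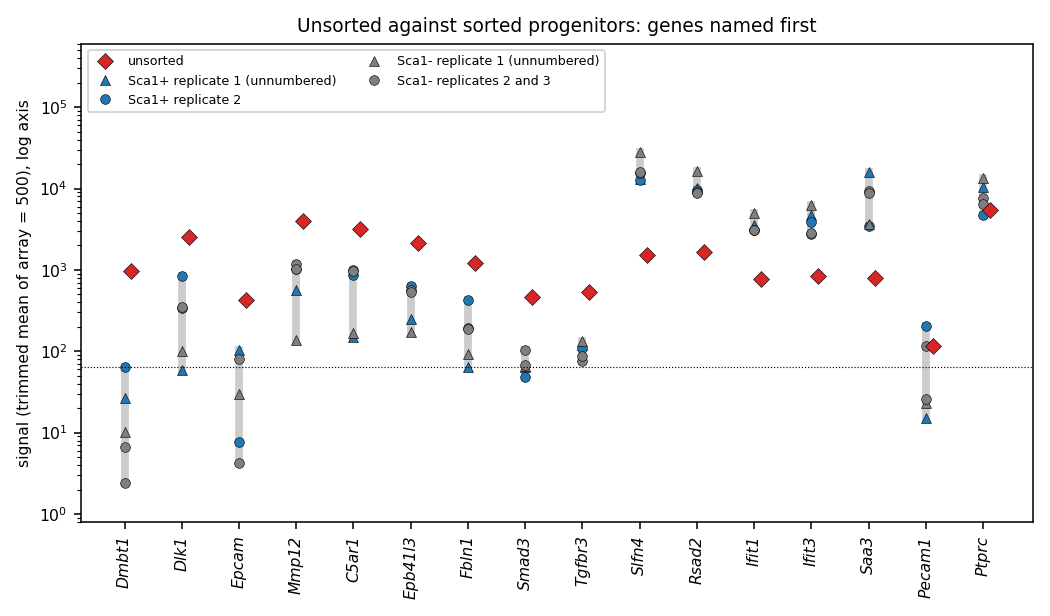
Signal on a log axis of 16 genes on the unsorted array (red diamonds) and the 5 sorted arrays (triangles unnumbered, circles numbered titles; grey bars their range; dotted line the floor of 64). Genes from Dmbt1 to Tgfbr3 lie above the bar, Slfn4 to Saa3 below it, and Pecam1 and Ptprc inside it.

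Dlk1, an imprinted surface protein of hepatoblasts, read 2510 on the unsorted array, 59.0 and 850 in Sca1+ and 100.1, 339 and 352 in Sca1-. All sorted arrays were lower, the nearest being Sca1+ replicate 2, at a distance of 1.56. Of 34 hepatoblast and hepatocyte genes 9 passed the filter and 6 lay above (4 by at least 2-fold: Dlk1, Gpc3, Cps1 and Rbp4), against 30.7% of all genes. The filter uses the mean over all 6 arrays, so a gene high only on the unsorted array can pass through it. Alb (albumin) read 288 against 29.8 to 317 and Afp (alpha-fetoprotein) 297 against 68.0 to 502, both inside the range. Of 30 biliary and epithelial genes 13 passed and 8 (61.5%, against 30.7% of all genes) lay above. The log2 level band of 7 to 8 holds the median levels of this and the hepatoblast list. In that band 46.0% of all genes lay above, and 20.9% after quantile normalization. Elf3 lay at 1.66, Krt8 at 1.12, Krt19 at 0.80 and Krt18 at 0.63. Spint1, Spint2, Tjp3, Cd24a and Prom1 lay inside the range. Cd24a read 1724 against 346 to 20460 and Prom1 161 against 69.2 to 3103, and these 2 were lower than the sorted mean. Cdh1, Krt7 and Sox9 were among the members that did not pass the filter. After quantile normalization 42.9% of the biliary and epithelial genes lay above, against 20.5% of all genes. Cps1, Rbp4 and Hnf4a of the hepatoblast list and Epcam, Dmbt1 and Krt19 of this list passed the filter only through the unsorted array. The mean signal of each over the sorted arrays was under 100. The medians of the 2 lists were 1.75 and 1.61, and 1.28 and 1.22 after quantile normalization. With no filter they were 0.85 and 0.94.

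Stromal genes differed more from the unnumbered than from the numbered sorted arrays. All 26 fibroblast genes that passed the filter, of 30 listed, were higher than the sorted mean, 12 lay above all sorted arrays and 0 by 2-fold. The median difference was 4.26 against the 2 unnumbered arrays and 1.003 against the 3 numbered ones. Dcn (decorin) read 4087 on the unsorted array, 82.8 and 3156 in Sca1+ and 87.3, 922 and 766 in Sca1-. Sca1+ replicate 2 was the nearest to it, at a distance of 0.37. Col1a1, the main fibrillar collagen chain, read 13192 against 79.4 and 20565 in Sca1+ and 32.6, 8319 and 8775 in Sca1-, inside the range. After quantile normalization Col1a1 lay above it by 0.27. The 12 of 26 above are 46.2%, against 30.7% of all genes. After quantile normalization 20 (76.9%, against 20.5%) lay above, and 15 members were higher in the blocked limma fit, in which 4.38% of all genes were higher.

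**Figure D4:**
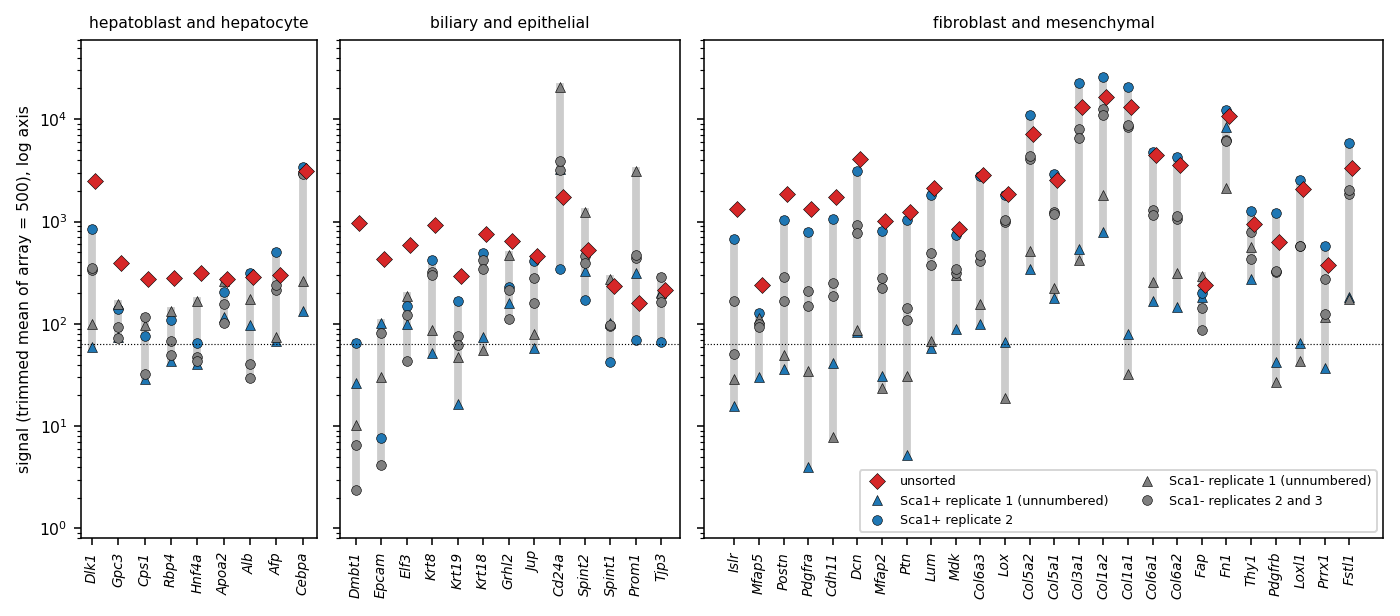
Signal on a log axis for the hepatoblast (9), biliary and epithelial (13) and fibroblast (26) genes that passed the filter, ordered by distance; red diamonds are the unsorted array, grey bars the range of the 5 sorted arrays, and the dotted line the floor of 64. The 2 unnumbered sorted arrays (triangles) are the low points of most fibroblast genes.

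Growth factor and matrix lists are read against the 30.7% of all genes above and, after quantile normalization, 20.5%. In the TGF-beta and BMP list, 11 of 24 (45.8%) lay above and 1 below, and 52.0% lay above after quantile normalization. Smad3, a signal transducer, read 458 against 47.8 to 105 (2.13), the co-receptor Tgfbr3 read 531 against 75.6 to 134 (1.98), and the activin subunit gene Inhbb lay at 1.60. Smad3 passed the filter only through the unsorted array, as its mean signal over the sorted arrays was under 100. The ligand Tgfb1 read 4083 against 17.6 and 2110 in Sca1+ and 77.4, 2469 and 2363 in Sca1-, a distance of 0.73. Tgfbi, a matrix protein induced by TGF-beta, lay below at -1.03. Of 13 imprinted growth genes 6 (46.2%, and 53.8% after quantile normalization) lay above, among them Igf2 at 0.69 and Plagl1 at 0.84. Of 22 matrix proteases and inhibitors 8 (36.4%) lay above, a share near that of all genes, and 40.9% after quantile normalization, with 0 below under both. The macrophage elastase gene Mmp12 read 3992 on the unsorted array, 567 and 1024 in Sca1+ and 139, 1191 and 1032 in Sca1-, a distance of 1.75 and 2.28 after quantile normalization. Of 15 basement membrane genes 5 (33.3%) lay above, a share near that of all genes, and 7 (46.7%) after quantile normalization. The basement membrane gene Fbln1 read 1218 against 63.4 to 426 (1.52), and Sfrp1, a Wnt antagonist, lay at 1.32. In the Notch list 10 of 18 (55.6%) lay above, 0 by 2-fold, and 4 (22.2%) after quantile normalization, a share near that of all genes. The list's median level is in the log2 band of 7 to 8, where 46.0% of all genes lay above, and 20.9% after quantile normalization. The receptor gene Notch2 lay below at -1.09.

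Other high-signal genes above, picked after their values were seen, were C5ar1 (complement C5a receptor), with 3195 against 149 to 984, Epb41l3, with 2113 against 173 to 633, and Axl, a receptor kinase for Gas6, with 3522 against 109 to 1742. Cd83, Lgals9 and Cd200r1, which mark or act on myeloid cells, lay at 1.39, 1.11 and 1.32. The macrophage genes Csf1r (-0.52), Lyz2 (-0.76), Ctss (-0.84), Mpeg1 (-0.52) and Cd14 (-0.28) lay below with trimmed-mean scaling. After quantile normalization these genes lay inside the range. Lyz1 (-1.09) and C1qb (-0.68) lay below under both scalings, at -0.30 and -0.018 after quantile normalization. Maf (0.74), Itgam (0.61), Mrc1 (0.36), Cd5l (0.22) and Cx3cr1 (0.18), of the same list, lay above under both scalings. After quantile normalization they were at 0.020, 0.73, 0.75, 0.35 and 0.29. Maf passed the filter only through the unsorted array, as its mean signal over the sorted arrays was under 100. Of 24 granulocyte genes that passed the filter 0 lay outside the sorted range, against 30.7% of all genes above and 17.4% below. After quantile normalization 1 lay below (Prtn3, -0.24). Against the sorted mean 23 were lower, with a median difference of -0.99. The list's median varied among the sorted arrays with a standard deviation of 2.63. Summed signals were 76751 on the unsorted array and 11863 to 785502 on the sorted ones.

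**Figure D5:**
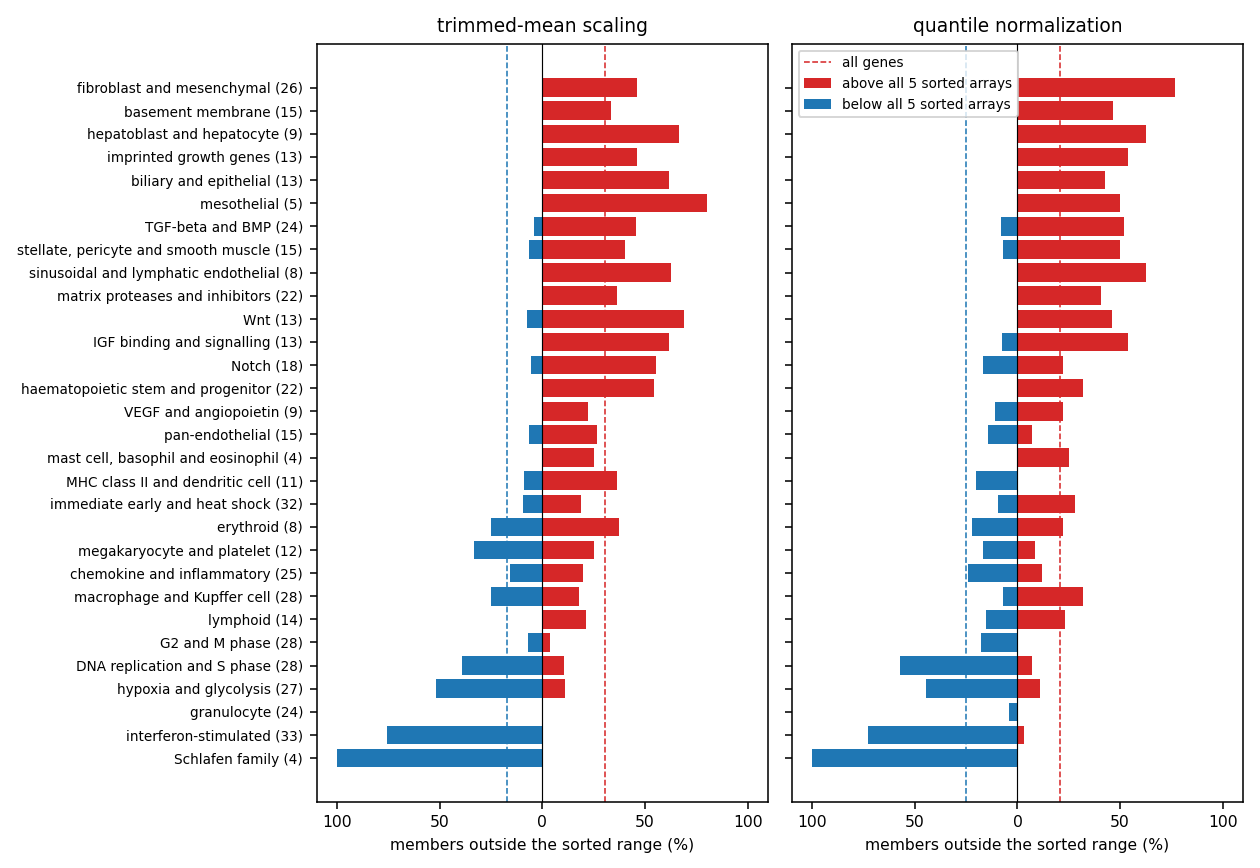
Percent of the members of 30 gene lists (number passing the filter in brackets) above (red, right) or below (blue, left) all 5 sorted arrays, with dashed lines for all genes, under both scalings. The Schlafen and interferon-stimulated lists have 100% and 75.8% of members below on the left, and 100% and 72.7% on the right.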

How the data were processed

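Total RNA was hybridised to one-colour oligonucleotide arrays, and 6 arrays were used. The authors deposited a linear signal intensity for each probe set, with array trimmed means of about 250. GCOS is named per the submitters' processing notes for the 3 numbered arrays; for the others the software is not stated in the labels. Trimmed means (2%) were set to 500, values under 64 were raised to 64, and log2 was taken. Of 22690 probe sets, 64 were controls, 20380 were paired with 1 gene in the platform annotation, 691 with several and 1555 with none. The probe set with the highest mean was kept for each of 12393 genes, and 8404 with a mean signal above 100 were tested with limma 3.58.1 (R 4.3.3; lmFit, eBayes with a trend, Benjamini-Hochberg), checked on simulated data. The number of arrays limits the precision. No arrays held identical values. The genes named were the 15 farthest above and below with the higher signal above 200, marker genes, and up to 5 members of each list; high-signal genes above 1000 were added after the values were seen. The members and lists were chosen with earlier results of these data known. Alternatives were the scaling, floor, pseudocount, filter, probe set choice, blocks and leaving out each sorted array. The feeder array, in 1 separate column, was not used.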

Additional observations from a re-analysis of the deposited data

Results flagged for a closer look

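Among the named genes, 5 passed Dixon's ratio for 1 sorted array against the other sorted arrays, which chance gives in about 1 in 20 groups. For Dmbt1 the ratio is set by the floor and says nothing: Sca1+ replicate 2 read 64.8 and the other sorted arrays were raised to 64. Smad3 was highest on Sca1- replicate 2 at 104.95. Its lowest sorted value, 47.8 on Sca1+ replicate 2, was raised to 64, so this ratio also depends on the floor. Slfn4 was highest on Sca1- replicate 1 at 28038, and Rsad2 on the same array at 16535. Pcyt2 was lowest on Sca1+ replicate 1 at 239. In each case the unsorted array lay outside the range with that array included.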

How the results depend on the processing

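The counts of genes at least 2-fold above and below (301 and 199) depended on the scaling, the probe set rule and the sorted arrays used. They were 121 and 358 with quantile normalization and 31 and 760 with median scaling. The count above was 705 with no filter, 39 with a mean signal above 300 and 770 over all probe sets, and the count below was 88 with the mean of probe sets. Leaving out each sorted array gave 321 to 606 above and 211 to 327 below, the highest both without Sca1+ replicate 2. Against the 2 unnumbered arrays alone they were 1453 and 724, and against the 3 numbered alone 565 and 354. At 4-fold 6 and 11 genes remained past the distance, and at any distance 2583 and 1460.

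Limma called 0 genes without a block. It called 441 higher and 25 lower at the higher floor, where 119 of the 466 had all sorted arrays at one value, 909 higher and 63 lower with no filter (464 of 972 likewise), and 1 higher with the mean of probe sets. Title numbering as a block gave 368 and 228, and with quantile normalization, an alternative chosen after seeing the data, 316 and 366. The replicate number as a block (replicate block) gave 0 higher and 0 lower, with a smallest adjusted p of 0.127; the numbers are not stated to pair the samples. Leaving out each sorted array gave 0 and 0.

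Median list differences moved as follows. With quantile normalization they were -0.10 for pan-endothelial genes, -0.15 for mast cell genes and -0.22 for MHC class II genes, which turned their sign, and 0.38 for haematopoietic progenitor, -0.98 for S phase and 0.19 for Notch genes. With median scaling, hepatoblast genes were at 1.02, biliary 0.64, mesothelial 0.17, sinusoidal 0.56, haematopoietic progenitor 0.18, VEGF 0.036, Notch 0.18 and Wnt 0.36. Under the same scaling, erythroid genes were at -0.31, megakaryocyte -0.39, macrophage -0.72, Schlafen -2.36, interferon-stimulated -1.94, chemokine -0.57, G2 and M phase -0.93, S phase -1.20 and hypoxia -1.36, while pan-endothelial (-0.23), mast cell (-0.019) and MHC class II genes (-0.32) turned their sign. The higher floor gave -0.17 for megakaryocyte genes. No filter gave 0.85 for hepatoblast, 0.94 for biliary, 0.57 for sinusoidal and 0 for mast cell genes. A mean signal above 300 gave 2.53 for hepatoblast, 0.98 for biliary and 0.31 for haematopoietic progenitor genes, and turned mast cell (-3.10), MHC class II (-0.35) and Notch genes (-0.11). The mean of probe sets gave -0.24 for hypoxia genes. Against the unnumbered arrays alone, fibroblast genes were at 4.26, basement membrane genes at 3.31 and MHC class II genes turned to -0.18. The cause of these shifts was not tested. The interferon-stimulated and Schlafen medians stayed below 0 in every alternative run, with ranges without 1 array of -1.27 to -1.04 and -1.72 to -1.46.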

Other observations

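A few genes were picked because they lay below all sorted arrays, so their values are a description, and other genes of like function were not counted. Srsf1, a splicing factor, read 845 on the unsorted array and 2602 to 3599 on the sorted arrays. Nxf1, the main mRNA export receptor, read 351 against 1057 to 2174.

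Genes linked to the sex chromosomes gave mixed values. Eif2s3y, on the Y chromosome, read 86.0 on the unsorted array and 235 to 911 on the sorted arrays, while Kdm5d, also on the Y chromosome, read 201 against 78.6 to 184. Xist read 4189 against 928 to 5651, inside the sorted range.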
